A study of Mus musculus with 6 samples.

Results

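The unfolded protein response and the integrated stress response were followed through 34 genes, out of 32285 genes in the count table, in mouse retina. The genes were chosen by name, for their known place in these pathways, and fall into 6 roles, namely 5 stress sensors, 5 transcription factors, 5 feedback and stress effector genes, 7 genes of amino acid and single-carbon supply, 9 chaperones and folding factors of the endoplasmic reticulum (ER) and 3 genes of ER-associated degradation. The choice was made with earlier results of these data known. All 34 were detected in every library, with between 62 and 19499 reads per gene and library. The filter on low counts therefore removed none of them.

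The retinas came from wild-type (wt) C57BL/6J mice with oxygen-induced retinopathy (OIR), a model in which pups of both groups were kept with their mothers in 75% O2 from postnatal day (PN) 8 to PN13, which obliterates central retinal capillaries, and then returned to room air. OIR-CIH mice were then exposed to chronic intermittent hypoxia (CIH), which models sleep apnea, as 266 daily cycles of 135 s over 10 h in which cage O2 went from 20.95% to 5% and back, while OIR-Norm mice had the same gas flow at constant O2. RNA of 3 retina libraries per group was sequenced at PN18, and the comparison asks which transcripts differ with CIH in an already ischemic retina. Each library was described as 1 eye, but all 6 held Xist, from an inactive X chromosome, and Y-linked transcripts, so the number of animals behind a library is not known and p-values measure the spread between libraries. Neither group was free of OIR, so the response to hyperoxia and return to room air could not be measured here.

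When proteins misfold in the ER, the membrane sensors PERK (Eif2ak3), IRE1 (Ern1) and ATF6 become active. IRE1 splices the Xbp1 mRNA, cleaved ATF6 enters the nucleus, and PERK phosphorylates the translation factor eIF2, as do GCN2 (Eif2ak4) when amino acids are short and HRI (Eif2ak1) under heme deficiency or mitochondrial stress. Phosphorylated eIF2 lowers protein synthesis in general while ATF4 is translated, and ATF4 then acts on genes of amino acid supply and on Ddit3, Trib3 and Chac1. These steps are splicing, cleavage, phosphorylation and translation, none of which gene counts record, so that the values below concern mRNA amount alone. In the retina, photoreceptors carry a heavy load of secretory pathway folding because rhodopsin is made in the ER.

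Promoter sequences from RefSeq (GRCm38.p6, 250 bases before to 50 after each start site) were matched for 30 of the 34 genes, and none was held for Atf6, Ppp1r15b, Slc7a5 or Manf. Known response elements were searched on both strands. The ER stress response element (ERSE) is CCAAT and CCACG with any 9 bases between them, read by ATF6 and XBP1 together with NF-Y. It was found for 5 of the 30 genes (16.7%), Calr, Creld2, Dnajc3, Hsp90b1 and Hspa5. Over all genes with a promoter it was found for 37 of 27025 (0.137%). ERSE-II, ATTGG and CCACG with any 1 base between them, occurred in Herpud1 alone among the 30 (3.33%). The share over all genes with a promoter was 0.0444%. The C/EBP-ATF response element (CARE), TGATGNAA, is bound by ATF4 with C/EBP partners. CARE was found in Asns, Atf3, Chac1, Herpud1 and Trib3 (16.7%), against 4.51% of all genes with a promoter. In Trib3 it lay 14 to 21 bases after the start site. No occurrence of ERSE overlapped one of ERSE-II or CARE. These shares describe letters in a window and say nothing of binding in the retina. Because the 34 genes were chosen for their known place in the pathways these elements serve, the shares are no independent result. The 250 bases before the start site are printed for 5 genes, 5′ to 3′ on the gene's strand, because they carry the elements by which the chaperones and the ATF4 targets are usually told apart. Capitals mark the matched element, as its complement where it lies on the other strand.
Hspa5 (chr2:34771840-34772089, plus strand): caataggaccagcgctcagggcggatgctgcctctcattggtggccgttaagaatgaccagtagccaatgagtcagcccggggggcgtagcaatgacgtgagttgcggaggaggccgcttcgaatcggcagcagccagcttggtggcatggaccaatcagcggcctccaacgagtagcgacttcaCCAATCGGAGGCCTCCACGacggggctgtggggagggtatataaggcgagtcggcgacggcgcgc
Calr (chr8:84846932-84847181, minus strand): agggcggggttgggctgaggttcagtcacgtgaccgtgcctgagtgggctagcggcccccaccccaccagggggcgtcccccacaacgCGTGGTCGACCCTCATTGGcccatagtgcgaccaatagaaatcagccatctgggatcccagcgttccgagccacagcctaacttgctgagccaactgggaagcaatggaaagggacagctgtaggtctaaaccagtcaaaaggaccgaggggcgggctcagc
Herpud1 (chr8:94386179-94386428, plus strand): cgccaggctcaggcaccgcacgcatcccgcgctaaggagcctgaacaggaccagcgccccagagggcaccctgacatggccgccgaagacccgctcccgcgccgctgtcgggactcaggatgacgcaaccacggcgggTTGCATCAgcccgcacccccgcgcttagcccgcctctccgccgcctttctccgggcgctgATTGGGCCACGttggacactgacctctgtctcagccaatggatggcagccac
Chac1 (chr2:119350992-119351241, plus strand): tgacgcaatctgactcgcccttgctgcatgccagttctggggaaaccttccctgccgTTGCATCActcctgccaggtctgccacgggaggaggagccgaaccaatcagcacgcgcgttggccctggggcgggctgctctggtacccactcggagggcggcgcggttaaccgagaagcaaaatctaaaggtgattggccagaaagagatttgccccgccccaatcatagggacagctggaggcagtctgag
Asns (chr6:7693210-7693459, minus strand): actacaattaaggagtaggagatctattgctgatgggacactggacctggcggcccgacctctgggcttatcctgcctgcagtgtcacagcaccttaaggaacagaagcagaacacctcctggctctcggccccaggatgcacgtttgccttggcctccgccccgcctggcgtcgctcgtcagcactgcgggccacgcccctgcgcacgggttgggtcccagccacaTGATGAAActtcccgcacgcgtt
The Hspa5 element ended 47 bases before the start site, whereas that of Calr lay 144 to 162 bases before it in the reverse direction. Herpud1, which was the only one of the 30 to hold elements of both kinds, had its CARE 105 to 112 bases and its ERSE-II 42 to 52 bases before the start site. In Asns the CARE began 23 bases before the start site.

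The 6 libraries held 26289905 to 38010151 counts, and 20021 genes with a total of at least 10 counts were tested. The labelled tissue was borne out by its markers, since all 10 photoreceptor markers were detected and summed to 47321 to 62307 CPM (counts per 1000000, after library sizes were adjusted by TMM, the trimmed mean of M values) in every library. OIR-Norm replicate 2 stood apart by lens transcripts, with a summed level of 552 CPM over the 8 lens markers against 17.5 to 85.2 CPM in the other 5 libraries. Over all genes, 63 (0.315%) passed both thresholds (adjusted p below 0.05, log2 fold change above 0.5 or below -0.5) in edgeR's quasi-likelihood test with Benjamini-Hochberg adjustment, and 78 (0.39%) passed the adjusted p alone.

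None of the 34 stress response genes passed, with or without the fold change threshold. The lowest adjusted p among them was 0.220 (Psat1, edgeR), and DESeq2, limma and the older form of edgeR's test also called 0 of them. In DESeq2 the lowest adjusted p values among them were closer to the threshold, at 0.0863 (Trib3) and 0.0955 (Psat1). The log2 fold changes of OIR-CIH against OIR-Norm ran from -0.30 (Atf3) to 0.47 (Trib3), which is from 0.811-fold to 1.39-fold. For 28 of the 34 genes the 95% interval lay within 0.5 of 0 on the log2 scale, so that for these a change above that size in either direction was outside the interval. The exceptions were Atf3, Trib3, Chac1, Psat1, Phgdh and Sdf2l1. Among the 13120 genes with a mean CPM at or above the lowest of the 34, a similar share (10848 genes) had such an interval. Over all 20021 genes tested it was 10891.

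**Figure D1:**
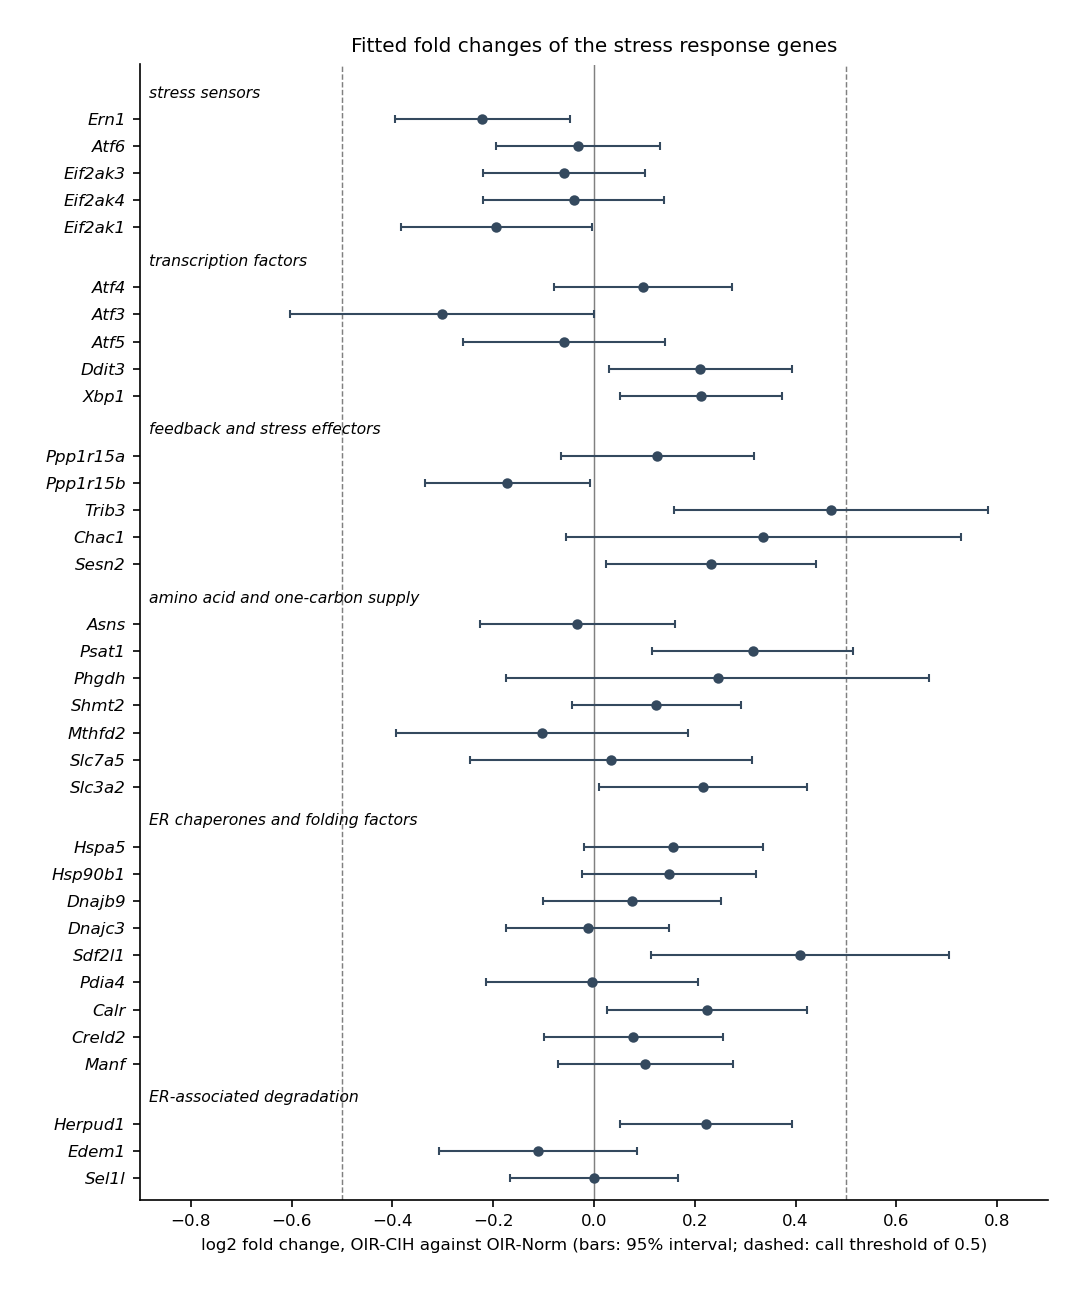
Log2 fold change of OIR-CIH against OIR-Norm for each of the 34 genes, grouped by role, from edgeR with 3 libraries per group (points, fitted value; bars, 95% interval; dashed lines, the call threshold of 0.5 either side of 0). All fitted values lie between -0.30 and 0.47, the 5 sensors all lie below 0, and Trib3, Sdf2l1, Chac1 and Psat1 lie farthest to the right.

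Below the threshold the genes were not evenly placed. At an unadjusted p under 0.05, 12 of the 34 genes (35.3%) passed, 9 of them higher (26.5%) and 3 lower (8.82%) in OIR-CIH, against 13.4% of all genes tested (6.3% higher and 7.1% lower). The CPM of the 3 OIR-CIH libraries did not overlap that of the 3 OIR-Norm libraries for 14 genes (41.2%), 10 higher and 4 lower, where 18.4% of all genes were separated in this way (9.12% higher and 9.26% lower). For any 1 gene, an exact permutation test over 3 against 3 libraries has p = 0.1 as its smallest value. Among the 13120 genes whose mean CPM was at or above that of Chac1, the lowest of the 34, a set chosen after the values were seen, 15.6% passed the unadjusted p (8% higher and 7.58% lower), 20.5% were separated and 0.457% passed both thresholds. The median log2 fold change of the 34 genes was 0.087, beside -0.0050 over all genes tested and 0.013 over the 13120. Fold changes above 0 were found for 20 of the 34 genes (58.8%), beside 49.1% of all genes and 53.3% of the 13120. These genes share pathways and libraries, and they were chosen with earlier results of these data known, so the shares may reflect that choice. Their counts and medians are a description with no test of the group.

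**Figure D2:**
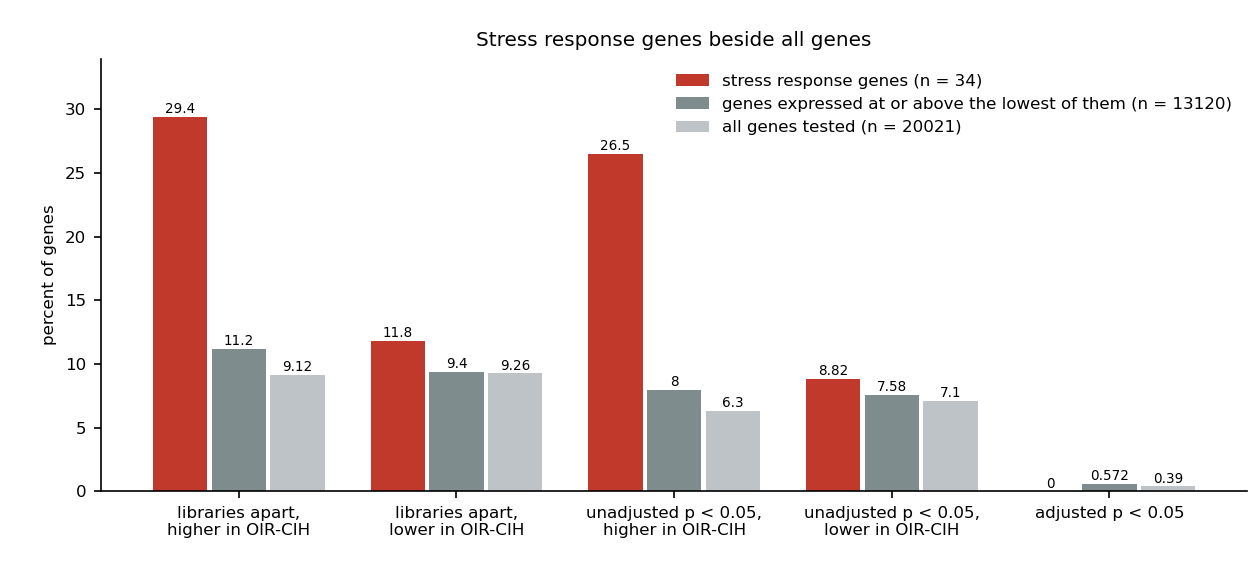
Percent of genes (vertical axis) past each of 5 criteria, for the 34 stress response genes, for the 13120 genes expressed at or above the lowest of them and for all 20021 genes tested. Separation upward in OIR-CIH was seen for 29.4% of the stress response genes beside 11.2% and 9.12%, separation downward for 11.8% beside 9.4% and 9.26%, and an adjusted p under 0.05 for 0 beside 0.572% and 0.39%.

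The 5 stress sensors all had fold changes at or below -0.031, with a median of -0.060, and none passed the test. Ern1 (ENSMUSG00000020715, chr11:106394650-106487852, minus strand, GRCm38), which encodes the kinase and endonuclease IRE1, measured 29.0, 30.5 and 29.0 CPM in the OIR-CIH libraries and 32.6, 35.7 and 34.8 CPM in the OIR-Norm libraries, here and below in the order of replicates 1, 2 and 3. The highest OIR-CIH library lay below the lowest OIR-Norm library, with a log2 fold change of -0.22 (SE 0.080, 95% interval -0.39 to -0.049, adjusted p = 0.293, edgeR). Eif2ak1 (ENSMUSG00000029613), the heme-regulated kinase HRI, was the other separated sensor, at 28.4, 26.4 and 28.7 CPM in the OIR-CIH libraries and 33.9, 32.4 and 29.1 CPM in the OIR-Norm libraries. Its groups came close to each other at 28.7 and 29.1 CPM, and the log2 fold change was -0.19 (SE 0.088, adjusted p = 0.367, edgeR).

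The remaining sensors overlapped between groups. Eif2ak3 (ENSMUSG00000031668), encoding PERK, had 52.0 ± 1.14 against 54.2 ± 2.62 CPM (SD, n = 3), and its 95% interval of -0.22 to 0.10 covered 0. Eif2ak4 (ENSMUSG00000005102), encoding the amino acid sensor GCN2, had 28.6 ± 1.01 against 29.5 ± 1.60 CPM (SD, n = 3) and a log2 fold change of -0.040. Atf6 (ENSMUSG00000026663), the sensor that is itself cleaved into a transcription factor, was the most abundant of the 5 per kilobase and had 119 ± 2.74 against 122 ± 8.50 CPM (SD, n = 3), with a log2 fold change of -0.031 (SE 0.075). The direction of Atf6 and of Eif2ak4 turned when a single OIR-Norm library was left out, replicate 1 (0.015) and replicate 3 (0.0049) respectively.

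Of the 5 transcription factors, Xbp1 and Ddit3 were separated upward in OIR-CIH, Atf4 and Atf5 overlapped, and Atf3 had a negative fold change. Xbp1 (ENSMUSG00000020484, chr11:5520659-5525893, plus strand), which drives chaperone and degradation genes once spliced, measured 101, 101 and 99.3 CPM in the OIR-CIH libraries and 88.6, 80.0 and 90.8 CPM in the OIR-Norm libraries. The OIR-CIH libraries lay within 2 CPM of each other and all above the OIR-Norm libraries, a 1.16-fold difference (log2 fold change 0.21, SE 0.074, 95% interval 0.052 to 0.37, adjusted p = 0.283, edgeR). The counts do not tell spliced from unspliced Xbp1. Ddit3 (ENSMUSG00000025408), encoding the pro-apoptotic factor CHOP, measured 38.4, 36.9 and 36.2 CPM in the OIR-CIH libraries and 34.3, 29.4 and 32.5 CPM in the OIR-Norm libraries. It was likewise separated, by 0.21 on the log2 scale (SE 0.084, adjusted p = 0.319, edgeR). Ddit3 shares exonic bases with Mars on the other strand, and a further identifier with the same symbol held 0 counts.

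Atf4 (ENSMUSG00000042406), the central factor of the integrated stress response, measured 326, 312 and 297 CPM in the OIR-CIH libraries and 292, 267 and 315 CPM in the OIR-Norm libraries. OIR-Norm replicate 3 lay above 2 of the OIR-CIH libraries, and the log2 fold change was 0.10 (95% interval -0.080 to 0.27, adjusted p = 0.643, edgeR). Atf3 (ENSMUSG00000026628), an immediate early stress factor, had the lowest fold change of the 34 genes at -0.30 (SE 0.14, 95% interval -0.60 to 0.00036, adjusted p = 0.373, edgeR). Its values of 9.93, 10.2 and 8.07 CPM in the OIR-CIH libraries and 11.3, 13.4 and 9.93 CPM in the OIR-Norm libraries overlapped, since OIR-CIH replicate 2 was above OIR-Norm replicate 3, and the log2 fold change was -0.20 without OIR-CIH replicate 3 and -0.18 without OIR-Norm replicate 2. Atf5 (ENSMUSG00000038539), linked to mitochondrial protein stress, had 40.1 ± 2.32 against 41.7 ± 4.39 CPM (SD, n = 3) and overlapped, and it shares exonic bases with Nup62 and Il4i1 on the other strand.

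The feedback and stress effector genes had the highest median of the 6 roles, 0.23, with 4 of 5 above 0 and 4 of 5 separated. Trib3 (ENSMUSG00000032715, chr2:152337422-152344032, minus strand), a pseudokinase that restrains ATF4 and CHOP, had the highest fold change of the 34 genes. It measured 14.9, 15.3 and 12.8 CPM in the OIR-CIH libraries and 11.8, 7.96 and 11.1 CPM in the OIR-Norm libraries. The groups did not overlap, although OIR-Norm replicate 2 lay well below the other 2 controls, and the log2 fold change was 0.47 (SE 0.14, 95% interval 0.16 to 0.78, adjusted p = 0.234, edgeR). Without OIR-Norm replicate 2 it was 0.32.

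Chac1 (ENSMUSG00000027313), which degrades glutathione downstream of ATF4, was the least abundant of the genes, at 2.90, 3.29 and 2.91 CPM in the OIR-CIH libraries and 2.60, 2.17 and 2.42 CPM in the OIR-Norm libraries. All OIR-CIH values were above all OIR-Norm values, by 0.34 on the log2 scale, but with the widest error among the separated genes (SE 0.18, 95% interval -0.056 to 0.73, adjusted p = 0.445, edgeR) from 62 to 110 reads per library. Sesn2 (ENSMUSG00000028893), a sestrin that holds back mTORC1, measured 26.4, 25.9 and 31.7 CPM in the OIR-CIH libraries and 23.5, 23.6 and 24.6 CPM in the OIR-Norm libraries. It was separated, with OIR-CIH replicate 3 highest (log2 fold change 0.23, SE 0.10, adjusted p = 0.336, edgeR), and the log2 fold change was 0.13 without that library. The regulatory subunits of the eIF2 phosphatase, which end the response, lay on opposite sides of 0. The constitutive subunit Ppp1r15b (ENSMUSG00000046062) measured 66.3, 60.8 and 67.2 CPM in the OIR-CIH libraries and 74.4, 75.1 and 69.6 CPM in the OIR-Norm libraries, separated downward (log2 fold change -0.17, SE 0.075, adjusted p = 0.353, edgeR). The stress-induced subunit Ppp1r15a (ENSMUSG00000040435), also called GADD34, had 28.8 ± 1.76 against 26.4 ± 1.66 CPM (SD, n = 3) and overlapped, with a log2 fold change of 0.13 (95% interval -0.065 to 0.32).

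**Figure D3:**
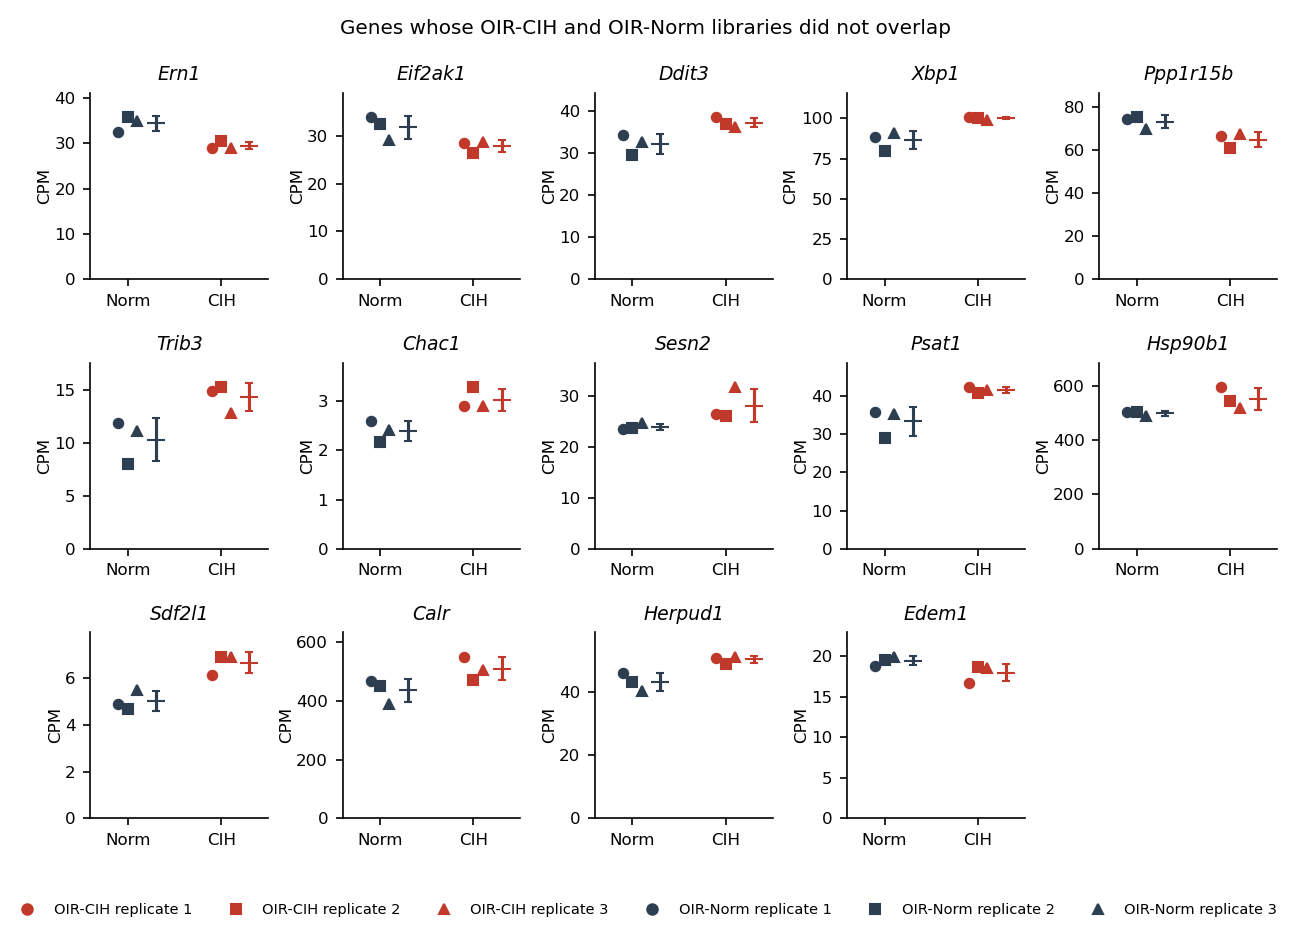
CPM of the 14 genes whose OIR-CIH and OIR-Norm libraries did not overlap (points, libraries; bars, mean and SD, n = 3; each vertical axis starts at 0). The 4 genes with lower values in OIR-CIH are Ern1, Eif2ak1, Ppp1r15b and Edem1, and relative to their mean the OIR-CIH libraries lie closest together for Xbp1 (99.3 to 101 CPM), Psat1 (40.7 to 42.3 CPM) and Herpud1 (49.1 to 51.3 CPM).

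Among the 7 genes of amino acid and single-carbon supply, 5 had fold changes above 0 (median 0.12) and only Psat1 was separated. Psat1 (ENSMUSG00000024640, chr19:15904678-15947337, minus strand), the aminotransferase of serine synthesis, measured 42.3, 40.7 and 41.6 CPM in the OIR-CIH libraries and 35.9, 29.0 and 35.2 CPM in the OIR-Norm libraries. The 3 OIR-CIH libraries spanned less than 2 CPM and lay above the controls, of which replicate 2 was the lowest, and the log2 fold change was 0.31 (SE 0.092, 95% interval 0.12 to 0.51, adjusted p = 0.220, edgeR). Leaving out OIR-Norm replicate 2 lowered it to 0.22. Phgdh (ENSMUSG00000053398), which catalyses the first step of the same pathway, measured 11.1, 9.78 and 7.70 CPM in the OIR-CIH libraries and 10.5, 7.19 and 6.19 CPM in the OIR-Norm libraries. Replicate 1 was the highest library in both groups, the groups overlapped, and the interval was among the widest (log2 fold change 0.25, 95% interval -0.17 to 0.67). Leaving out 1 library moved Phgdh from 0.088 (without OIR-Norm replicate 3) and 0.12 (without OIR-CIH replicate 1) to 0.39 (without OIR-CIH replicate 3) and 0.50 (without OIR-Norm replicate 1). The mitochondrial enzymes of folate metabolism gave 60.3 ± 3.10 against 55.4 ± 2.82 CPM (SD, n = 3) for Shmt2 (ENSMUSG00000025403, log2 fold change 0.12). For Mthfd2 (ENSMUSG00000005667) they gave 5.87 ± 0.362 against 6.33 ± 0.567 CPM (SD, n = 3) (log2 fold change -0.10).

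Asns (ENSMUSG00000029752), asparagine synthetase and a standard ATF4 target, measured 24.1, 22.8 and 26.7 CPM in the OIR-CIH libraries and 25.9, 24.6 and 24.9 CPM in the OIR-Norm libraries. It overlapped with a log2 fold change of -0.033 (95% interval -0.23 to 0.16, adjusted p = 0.900, edgeR), and the fitted value was 0.016 without OIR-CIH replicate 2. Slc3a2 (ENSMUSG00000010095), the heavy chain of the heterodimeric amino acid exchangers, measured 179, 159 and 158 CPM in the OIR-CIH libraries and 162, 138 and 127 CPM in the OIR-Norm libraries. Its unadjusted p was under 0.05 although OIR-Norm replicate 1 lay above 2 of the OIR-CIH libraries (log2 fold change 0.22, SE 0.095, adjusted p = 0.356, edgeR), and without OIR-Norm replicate 3 its log2 fold change was 0.14. Its partner Slc7a5 (ENSMUSG00000040010), the leucine transporter LAT1, spread from 61.5 to 89.0 CPM in OIR-Norm and from 68.7 to 89.0 CPM in OIR-CIH (log2 fold change 0.035, SE 0.13).

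Of the 9 ER chaperones and folding factors, 7 had fold changes above 0 (median 0.10) and 3 were separated, all upward. The 3 most abundant, Calr, Hsp90b1 and Hspa5, all had their highest value in OIR-CIH replicate 1. Hspa5 (ENSMUSG00000026864), encoding BiP, the chaperone that holds the sensors inactive, measured 452, 443 and 383 CPM in the OIR-CIH libraries and 388, 378 and 380.2 CPM in the OIR-Norm libraries. OIR-CIH replicate 3 fell inside the narrow OIR-Norm range while the other 2 lay well above it (log2 fold change 0.16, SE 0.082, 95% interval -0.020 to 0.34, adjusted p = 0.432, edgeR). Hsp90b1 (ENSMUSG00000020048), encoding GRP94, was separated at 595, 544 and 516 CPM in the OIR-CIH libraries and 504, 502 and 488 CPM in the OIR-Norm libraries. Its log2 fold change was 0.15 (SE 0.079, adjusted p = 0.444, edgeR), and 0.088 without OIR-CIH replicate 1.

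Calr (ENSMUSG00000003814), the lectin chaperone calreticulin, measured 551, 472 and 506 CPM in the OIR-CIH libraries and 467, 451 and 391 CPM in the OIR-Norm libraries. The lowest OIR-CIH library was only slightly above the highest control (log2 fold change 0.22, SE 0.091, 95% interval 0.026 to 0.42, adjusted p = 0.328, edgeR). Sdf2l1 (ENSMUSG00000022769, chr16:17130138-17132383, minus strand), an ER-resident factor that works with BiP and its J-domain partners, had the second highest fold change of the 34 genes. It measured 6.12, 6.90 and 6.91 CPM in the OIR-CIH libraries and 4.87, 4.67 and 5.50 CPM in the OIR-Norm libraries, a 1.33-fold difference (log2 fold change 0.41, SE 0.14, 95% interval 0.11 to 0.70, adjusted p = 0.271, edgeR). The separation rested on 133 to 261 reads per library. Its log2 fold change was 0.36 to 0.48 over all 13 alternative analyses.

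The other 5 chaperones and folding factors overlapped and lay within 0.11 of 0. Dnajb9 (ENSMUSG00000014905), an XBP1 target encoding ERdj4, had 35.3 ± 2.06 against 33.5 ± 1.32 CPM (SD, n = 3) with a log2 fold change of 0.075. Dnajc3 (ENSMUSG00000022136), encoding the co-chaperone p58IPK that inhibits PERK, had 76.0 ± 4.54 against 76.6 ± 2.10 CPM (SD, n = 3) with -0.012. For Creld2 (ENSMUSG00000023272), an ER stress-inducible factor with EGF-like domains, the means were 29.3 ± 0.932 against 27.7 ± 1.41 CPM (SD, n = 3), with a log2 fold change of 0.078. Manf (ENSMUSG00000032575), a secreted neurotrophic factor made under ER stress, had 34.2 ± 1.06 against 31.8 ± 1.66 CPM (SD, n = 3) with a log2 fold change of 0.10, and it shares exonic bases with Rbm15b on the same strand, where reads cannot be assigned to either gene. The disulfide isomerase Pdia4 (ENSMUSG00000025823) had 91.4 ± 8.53 against 91.7 ± 10.1 CPM (SD, n = 3), a fitted difference of -0.0038 on the log2 scale with an interval of -0.21 to 0.21.

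Of the 3 genes of ER-associated degradation, Herpud1 was separated upward, Edem1 was separated downward and Sel1l overlapped. Herpud1 (ENSMUSG00000031770, chr8:94386438-94395377, plus strand), which organises the retrotranslocation complex, measured 50.9, 49.1 and 51.3 CPM in the OIR-CIH libraries and 46.2, 43.1 and 40.3 CPM in the OIR-Norm libraries. All OIR-CIH libraries lay above the controls, a 1.17-fold difference (log2 fold change 0.22, SE 0.079, 95% interval 0.052 to 0.39, adjusted p = 0.286, edgeR). Edem1 (ENSMUSG00000030104), a mannosidase-like protein that hands glycoproteins to degradation, measured 16.7, 18.6 and 18.5 CPM in the OIR-CIH libraries and 18.8, 19.5 and 19.9 CPM in the OIR-Norm libraries, separated downward by a narrow margin (log2 fold change -0.11, SE 0.090, 95% interval -0.31 to 0.085, adjusted p = 0.627, edgeR). Without OIR-CIH replicate 1 its log2 fold change was -0.068. Sel1l (ENSMUSG00000020964), the adaptor of the ubiquitin ligase HRD1, had 141 ± 10.3 against 141 ± 4.81 CPM (SD, n = 3), and its interval ran from -0.17 to 0.17 on the log2 scale. Edem1 and Herpud1, which both serve as readouts of the unfolded protein response, lay on opposite sides of 0, and neither passed the test.

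**Figure D4:**
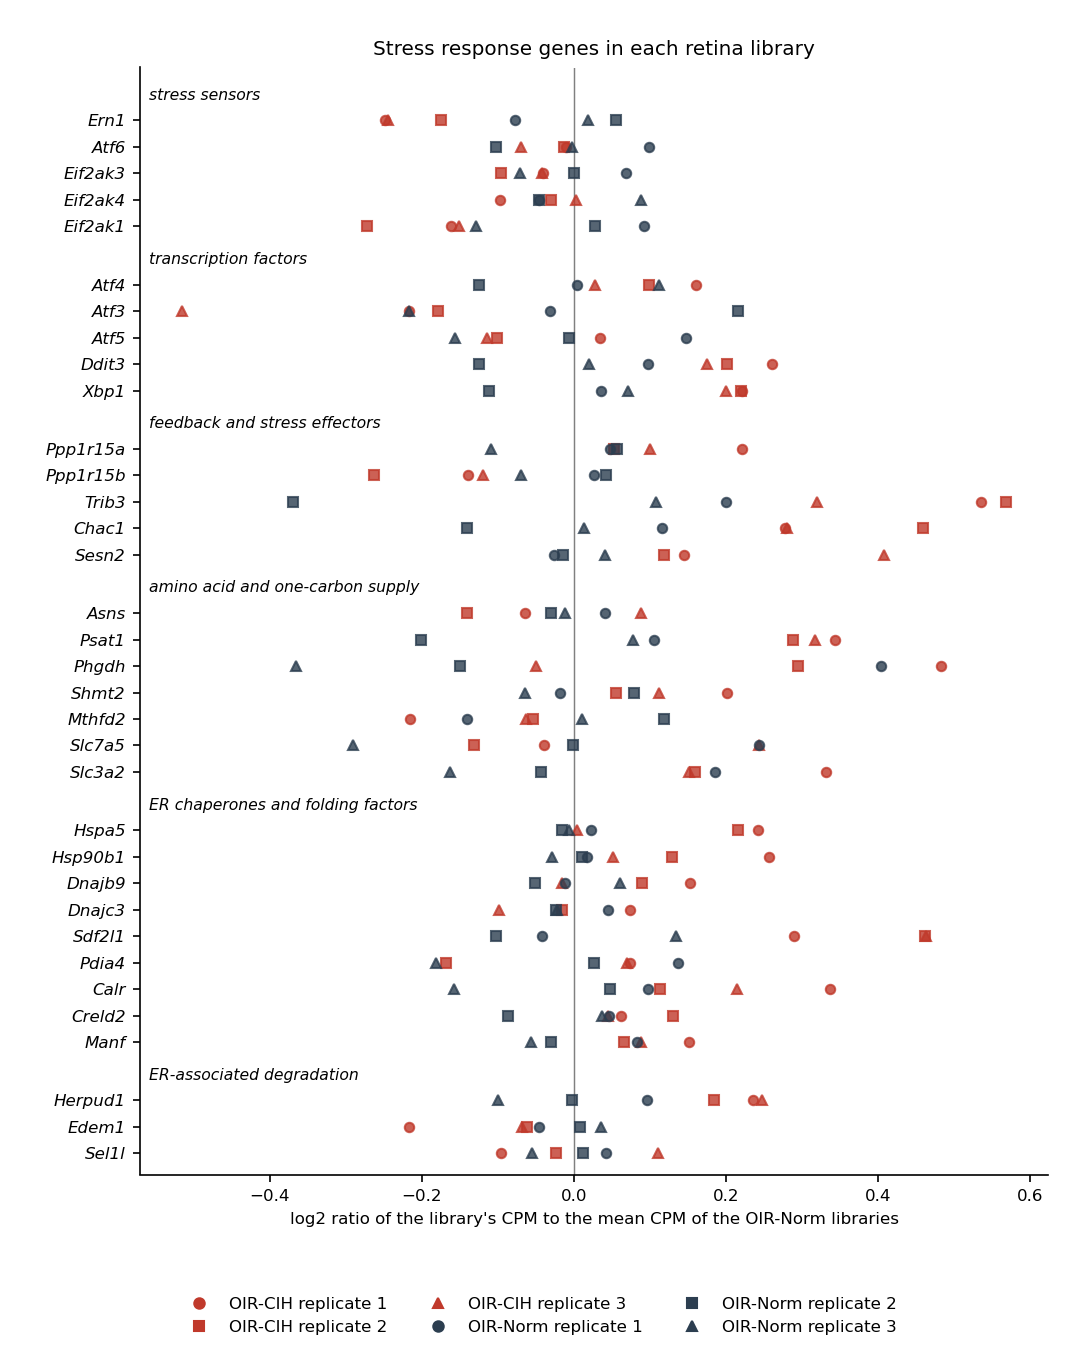
CPM of each library relative to the OIR-Norm mean of the same gene, as a log2 ratio (horizontal axis), for the 34 genes by role (red, OIR-CIH; dark blue, OIR-Norm; symbols, replicates). OIR-CIH replicate 1 is the library farthest to the right for 14 genes, and OIR-Norm replicates 2 and 3 are each farthest to the left for 11.

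Set beside the promoter elements, for the 6 genes with ERSE or ERSE-II the median log2 fold change was 0.15, and 5 were above 0 and 3 separated (Hsp90b1, Calr and Herpud1). The 5 genes with CARE had a median of 0.22, from -0.30 (Atf3) to 0.47 (Trib3), with 3 above 0 and 3 separated. The 20 genes with a promoter but none of the elements had a median of 0.086, with 11 above 0 and 8 separated. The ranges overlapped widely, and with 5 and 6 genes, of which Herpud1 is in both sets, no difference between the sets was tested.

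Levels between genes were compared per kilobase of annotated exon (GENCODE M21, GRCm38). In OIR-Norm the highest were Calr at 152 ± 13.9, Hsp90b1 at 123 ± 2.13 and Atf4 at 123 ± 10.1 CPM per kilobase (SD, n = 3), followed by Hspa5 at 90.3 ± 1.25. Hsp90b1 and Atf4 did not differ beyond their spread, whereas Hspa5 lay below Atf4 by more than the SD of either, and Slc3a2 (40.4 ± 5.03) and Pdia4 (38.2 ± 4.20) formed a lower pair within each other's spread. The transcription factors other than Atf4 were far less abundant, with Xbp1 at 26.6 ± 1.76, Atf5 at 20.9 ± 2.20, Ddit3 at 18.7 ± 1.44 and Atf3 at 5.36 ± 0.812 CPM per kilobase. Sensors spanned 3.95 (Eif2ak4) to 13.2 (Atf6), and Chac1 was lowest at 1.46 ± 0.129. The separated genes were found along the whole of this scale, from Calr to Chac1.

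**Figure D5:**
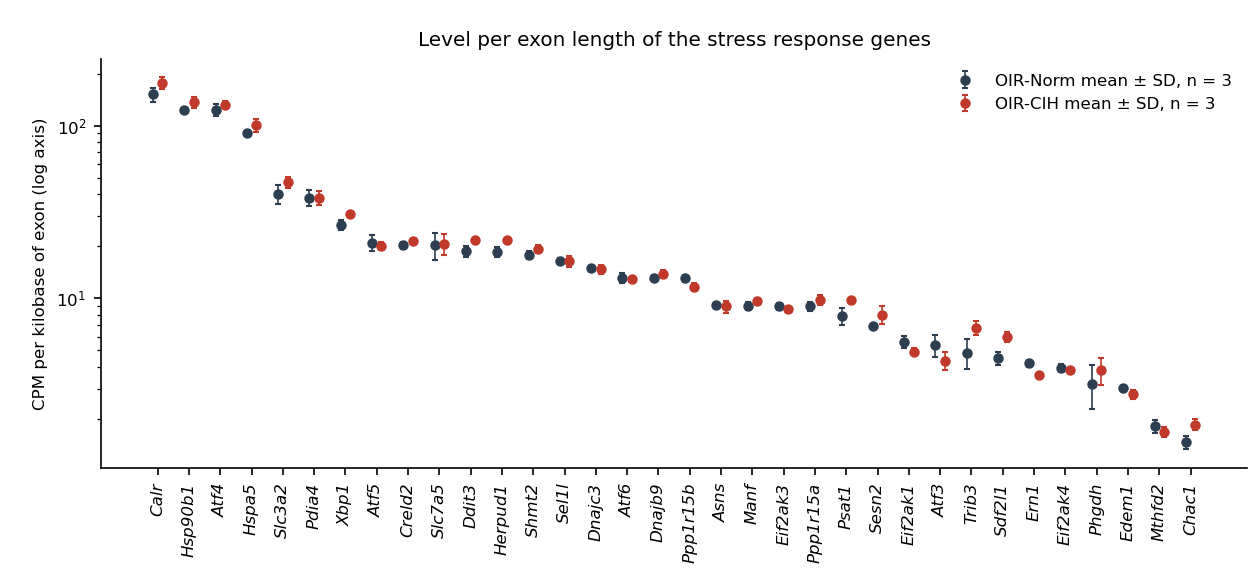
CPM per kilobase of exon (log axis) for the 34 genes in order of their OIR-Norm level, with the mean and SD of 3 libraries in each group. The scale runs from 1.46 for Chac1 to 152 for Calr in OIR-Norm, and the OIR-CIH mean stays close to the OIR-Norm mean along it.

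The pattern varied with single libraries. OIR-CIH replicate 1 held the highest value for 14 of the 34 genes (41.2%, beside 17.6% of all genes tested), and OIR-Norm replicates 2 and 3 each held the lowest for 11 (32.4% each, beside 22.9% and 14% of all genes). Centred on its mean over the 6 libraries, the log2 CPM of the 34 genes had medians of 0.085, 0.0042 and 0.031 in the OIR-CIH libraries and of -1.7e-05, -0.062 and -0.069 in the OIR-Norm libraries. Without OIR-Norm replicate 2, the library with lens transcripts, 6 genes passed the unadjusted p in place of 12, 5 of them higher and 1 lower in OIR-CIH, and the median log2 fold change was 0.044. Without OIR-CIH replicate 1, 7 genes passed it, 1 of them lower, while the number over all genes tested fell from 2682 to 1718. With any 1 library left out, 6 to 10 of the 34 genes passed it, beside 1718 to 2760 of all genes.

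Photoreceptor transcripts were likewise highest in OIR-CIH replicate 1 and lowest in OIR-Norm replicates 2 and 3. The 10 photoreceptor markers summed to 62307, 53614 and 57267 CPM in the OIR-CIH libraries and to 61986, 47321 and 50274 CPM in the OIR-Norm libraries, all 10 had fold changes above 0 (0.020 to 0.34) and none passed the test. Pigment epithelium markers summed to 275 to 404 CPM in OIR-CIH and 178 to 352 CPM in OIR-Norm, and like the 34 genes they were highest in OIR-CIH replicate 1 and lowest in OIR-Norm replicates 2 and 3. None of the 8 passed the adjusted p, and they split 4 above and 4 below 0. Those above, Lrat (0.80), Ttr (0.75), Rpe65 (0.65) and Rdh5 (0.51), all exceeded the highest of the 34 genes. They were under an unadjusted p of 0.05, and Lrat and Ttr were separated. Those below, Mlana (-0.88), Pmel (-0.78), Tyrp1 (-0.40) and Best1 (-0.19), overlapped between groups and were not under it. Microglia markers summed to 84.2 to 99.4 CPM in OIR-CIH and 105 to 123 CPM in OIR-Norm, with 7 of 8 below 0 and 1 passing (Mpeg1, a macrophage pore protein, log2 fold change -0.71). Markers of Müller glia and astrocytes, at 4258 to 5179 against 4292 to 4876 CPM, of endothelial cells, at 208 to 236 against 207 to 263 CPM, of inner retinal neurons, at 1467 to 1594 against 1343 to 1524 CPM, and of erythroid cells, at 56.2 to 75.2 against 52.1 to 115 CPM, overlapped between groups. By gene, 7 of 8 endothelial markers were below 0 (median log2 fold change -0.25), and none passed. For each of the 8 except Kdr, the highest library was OIR-Norm replicate 2, the library with lens transcripts. Pecam1, for example, measured 9.38, 10.6 and 12.5 CPM in the OIR-CIH libraries and 12.3, 24.4 and 8.32 CPM in the OIR-Norm libraries. Kdr, at a mean of 172 CPM in both groups (log2 fold change -0.0072), made up most of the endothelial sum. Of the inner retinal neuron markers, 10 of 12 were above 0 (median 0.11), with none passing. Of the erythroid markers 4 of 5 were below 0, and the glial list split 4 above and 4 below. The astrocyte filament gene Gfap, within the glial list, passed with a log2 fold change of -1.15. The part of these markers in the values of the 34 genes was not tested, and in whole retina a difference in the share of a cell type and a difference in RNA per cell cannot be told apart.

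Beyond the 34 genes, 3 lists of related genes were measured. Of 40 other ATF4 and integrated stress response genes, 39 were tested (Fgf21 was not), with 20 fold changes above 0 and 19 below (median 0.019), and 1 passing gene. In this list 10 genes were separated upward and 9 downward, where 18.4% of all genes were separated, and 9 of 39 were under an unadjusted p of 0.05, beside 13.4% of all genes. The passing gene was Slc7a11 (ENSMUSG00000027737), the cystine transporter subunit xCT, at 7.89, 8.88 and 9.98 CPM in the OIR-CIH libraries and 17.2, 18.6 and 13.0 CPM in the OIR-Norm libraries. Slc7a11 fell in OIR-CIH by 0.86 on the log2 scale (SE 0.14, 95% interval -1.17 to -0.54, adjusted p = 0.0234, edgeR). It was among the 19 genes of this list below 0, with the sign of Atf3 and opposite in sign to Trib3, Chac1 and Ddit3. The groups were separated, with OIR-Norm replicate 3 the control nearest to the OIR-CIH libraries. The call held in 8 of 13 alternative analyses, including 2 of the 6 that left out 1 library, with adjusted p from 9.26e-06 to 0.150, and was lost without OIR-CIH replicate 1 (0.150) or 2 (0.0854) and without OIR-Norm replicate 1 (0.0689) or 2 (0.0795). Slc7a11 and Nupr1, which is described next, had been listed by the study from these same samples. Slc7a11 partners with the Slc3a2 product, whose own fold change was 0.22.

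In DESeq2 3 further genes of this list had an adjusted p under 0.05, of which only Nupr1 also passed the fold change threshold, and they are named here after their values were seen. Ddit4, an inhibitor of mTORC1 that also responds to hypoxia, measured 279.8, 221 and 233 CPM in the OIR-CIH libraries and 189.8, 171 and 176 CPM in the OIR-Norm libraries, with a log2 fold change of 0.45 and an adjusted p of 0.0811 in edgeR against 0.000840 in DESeq2. Cebpg, a dimer partner of ATF4, had 28.6 ± 0.697 against 36.8 ± 3.39 CPM (SD, n = 3) (log2 fold change -0.37, adjusted p 0.142 in edgeR and 0.0316 in DESeq2). Nupr1, a chromatin-associated stress protein, had 9.24 ± 2.47 against 13.8 ± 1.21 CPM (SD, n = 3) (log2 fold change -0.60, adjusted p 0.208 in edgeR and 0.0477 in DESeq2), and without OIR-CIH replicate 3 its log2 fold change was -0.39. All 3 were separated between groups, Ddit4 upward and the others downward.

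The 40 other ER folding and degradation genes had 26 fold changes above 0 and 14 below (median 0.054), with 0 passing in edgeR and in DESeq2. Those separated were 6 upward and 2 downward, and 5 of 40 were under an unadjusted p of 0.05, shares close to those over all genes (18.4% and 13.4%). Those with the lowest p were Selenos, a selenoprotein of the degradation machinery, with 42.4 ± 2.54 against 34.6 ± 1.81 CPM (SD, n = 3) (log2 fold change 0.29, SE 0.082, adjusted p = 0.206, edgeR), and the prolyl isomerase Ppib, with 54.8 ± 2.81 against 45.8 ± 1.26 CPM (SD, n = 3) (log2 fold change 0.26, SE 0.076, adjusted p = 0.222, edgeR). The 12 mitochondrial proteostasis genes had 7 above 0 and 5 below (median 0.049), 0 passing in edgeR and in DESeq2 and 1 under an unadjusted p of 0.05. Its lowest p values belonged to the proteases Afg3l2 (log2 fold change -0.17, adjusted p = 0.358, edgeR) and Lonp1 (log2 fold change -0.16, adjusted p = 0.445, edgeR).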

How the data were processed

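RNA of 6 retina libraries (3 OIR-CIH, 3 OIR-Norm) was measured as poly(A)-selected, stranded RNA sequencing. The authors deposited raw counts per gene, made with STAR 2.7.9a, in 1 table without normalization. The submitters' processing notes name GRCm38, the study's methods an Ensembl release of a later build, and which strand column was kept is not given in the sources used here. Coordinates are therefore those of the annotations named beside them, matched by gene identifier or symbol. Counts are uncertain for the 10 of the 34 genes that share exonic bases with a gene on the other strand. These are Eif2ak3, Eif2ak1, Atf5, Ddit3, Ppp1r15a, Ppp1r15b, Shmt2, Hsp90b1, Dnajb9 and Manf. The same holds for the 4 genes with an overlap on the same strand, Ddit3, Hsp90b1, Pdia4 and Manf.

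The counts were tested in R 4.3.3 with edgeR 4.0.16 (trimmed mean of M values, quasi-likelihood test, 6 libraries, no covariate, genes with a total of at least 10 counts, Benjamini-Hochberg over 20021 genes). Calls used the study's thresholds, an adjusted p below 0.05 with a log2 fold change beyond 0.5 either way. Standard errors are the absolute log2 fold change divided by the square root of F. CPM are per 1000000 of the scaled library size. Precision rests on 26289905 to 38010151 counts per library, and no 2 libraries agreed within sampling noise. The test was checked on simulated counts, drawn for each gene independently with the dispersions estimated from these same libraries. Such counts cannot show how the test behaves where genes vary together between libraries.

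The 34 genes and the other lists were chosen with earlier results of these data known. All 34 are named. Of each related list, genes with an adjusted p under 0.05 are named up to 5 by lowest p, or where none passed the 2 with the lowest p. Alternatives were median-of-ratios scaling, DESeq2 1.42.0, the older edgeR test, limma 3.58.1 on log2(CPM + 0.5), 2 other filters, the replicate number as a block and leaving out each library.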

Additional observations from a re-analysis of the deposited data

How the results depend on the processing

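None of the 34 genes had an adjusted p under 0.05 in any of the 13 alternative analyses (442 values), and 26 kept their direction in every one. The direction turned in 18 of the 442 values, all of genes close to 0. Sel1l was 0.00039 with median-of-ratios scaling, 0.00049 in DESeq2 and 0.0023 with no filter, and leaving out each library moved it from -0.063 to 0.042. Over the same omissions Asns ran from -0.11 to 0.016, Pdia4 from -0.088 to 0.071, Slc7a5 from -0.093 to 0.17, Dnajc3 from -0.059 to 0.027, Atf6 from -0.081 to 0.015, Atf5 from -0.13 to 0.015 and Eif2ak4 from -0.069 to 0.0049. The cause was not tested. DESeq2 called more genes over the whole table, 135 (34 of them higher) against 63, and 261 against 78 on the adjusted p alone, with 4 in the related lists against 1.

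Leaving out 1 library at a time, genes called were fewest, 29, without OIR-CIH replicate 1 and most, 97, without OIR-Norm replicate 3, those called higher ran from 7 to 31, those past the adjusted p alone from 29 to 102 and those under the unadjusted p from 1718 to 2760. Of the 34 genes, 6 to 10 passed the unadjusted p, 5 to 9 higher and 1 to 4 lower. The number lower was 1 also without OIR-Norm replicate 1. Their median log2 fold change ran from 0.044 to 0.11 and the number above 0 from 20 to 25. Passing genes of the related lists ran from 0 to 1, since Slc7a11 lost its call in 4 of these 6 fits. With the replicate block 68 genes were called, with 0 of the 34 past the adjusted p and 11 past the unadjusted p, and in the related lists Slc7a11 missed the adjusted p threshold (adjusted p = 0.0676, edgeR) while Ddit4 passed that of the adjusted p alone (0.0389, edgeR). Same-numbered libraries had correlations of 0.162, 0.143 and -0.238 in their deviations from the group means over 14800 genes. Those of differently numbered libraries ran from -0.404 to 0.224, a range that holds these values, so the numbers gave no sign of a pairing. Depth limits Chac1 and Sdf2l1 most, with as few as 62 and 133 reads in a library.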
